A study of Oryza sativa Japonica Group with 8 samples.

Results

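Leaves of rice left without water for 3 days were compared with leaves of well-watered rice, in 4 of the 8 libraries of the series. The plants were Oryza sativa Japonica Group, Ilmi variety, 5 weeks old, grown in a greenhouse in soil pots holding 3 plants each after germination on MS media. Soil water was set to about 75% when watering stopped, and the 4 libraries left out here come from 1 and 2 days without water. Each treatment was sequenced once as total RNA and once as mRNA, with strand-specific kits, so each side of the comparison has 1 library of each kind. The day 3 library was set against the well-watered library of the same kind, and both kinds had to agree. A gene counts here as called higher if the log2 ratio of FPKM + 1 reached 1 in each kind, and as called lower if it reached -1 in each, which is a difference of at least 2-fold on that scale. FPKM is a fragment count corrected for transcript length and for library size, and adding 1 understates the differences of genes with low levels. There is no replicate of either side, so no test was made and no p-value is given. The labels say neither whether both kinds came from the same RNA nor at what time of day leaves were taken.

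Rice leaves that lose water close their stomata under abscisic acid, and the shortage of carbon dioxide that follows limits photosynthesis. Protective proteins and sugars build up in the cells, and prolonged drought brings on leaf senescence, in which chloroplast proteins, lipids and starch are broken down and their nitrogen and carbon are moved to other organs. Many enzymes of these pathways exist as separate gene copies for the chloroplast, the cytosol and the mitochondrion, so a table of all genes can show which copy differs.

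Of 27626 genes listed for both kinds, 18113 averaged 1 FPKM or more in each table and were kept. On day 3, 3290 of them were called higher, which is 18.2% of the genes kept, and 4699 were called lower, or 25.9%. Together 7989 genes, or 44.1%, passed the size rule in both kinds. At a stricter limit of 4-fold, 1681 genes (9.28%) were higher and 1769 (9.77%) were lower. The median log2 ratio of all genes kept was -0.24 in total RNA and -0.39 in mRNA. The balance of the calls depended on the scaling: 41.2% of called genes were higher with FPKM as deposited and 55.8% after median-ratio scaling, which moved the medians to 0.07 and 0.10. Ratios below are on the deposited scale and are to be read against the medians of -0.24 and -0.39. The filter acted on the direction as well. Among 957 kept genes with a mean under 1 FPKM in the well-watered libraries, 769 were called higher and 0 lower, since such a gene could be kept only through its level in a drought library. At the other end, 157 of the 232 genes with at least 300 FPKM when watered were called lower and 12 higher, and there the watered level enters both the grouping and the ratio.

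**Figure D1:**
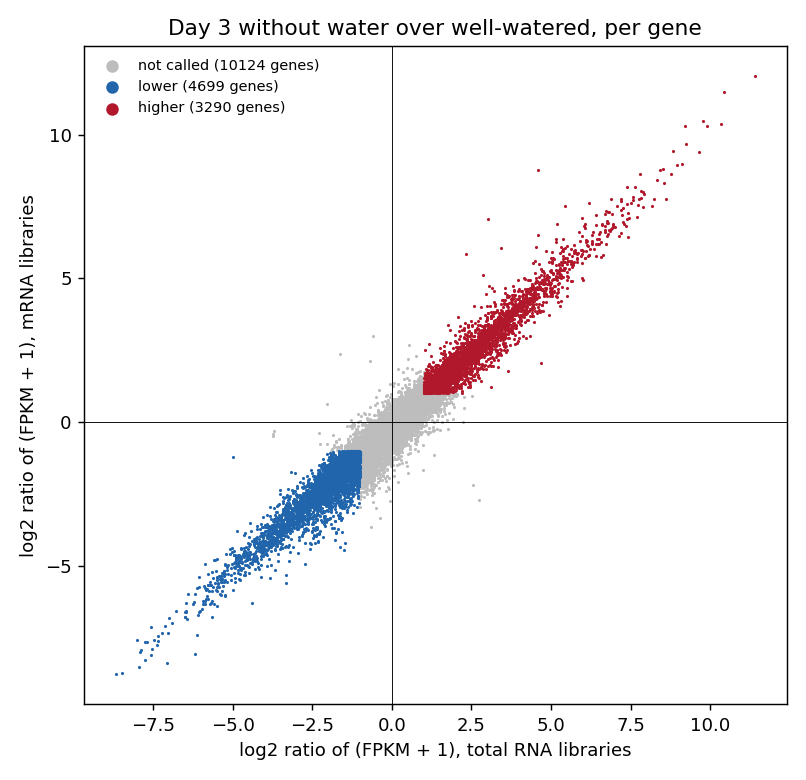
Log2 ratio of day 3 to well-watered leaves (FPKM + 1) in the total RNA libraries, horizontal axis, against that in the mRNA libraries, vertical axis, with 1 point for each of the 18113 genes kept and colours for the calls. The 3290 genes called higher and the 4699 called lower lie along the diagonal, and 4 genes were past the limit in opposite directions.

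The library kinds gave closely similar ratios. The median absolute difference between them was 0.24 on the log2 scale, and 79.0% of genes were within 0.5, while 784 genes were more than 1 apart. The total RNA pair alone passed the limit for 840 further genes and the mRNA pair alone for 1521. The leaf label was checked against marker genes. Rubisco small subunits, which mark photosynthetic cells, summed to 22565 FPKM watered and 150.2 on day 3 in total RNA, and to 17939 and 105 in mRNA. Chlorophyll a/b-binding proteins, 15 genes, summed to 33013 and 765 FPKM in total RNA and to 31379.7 and 776 in mRNA. Seed storage proteins (glutelin, prolamin and globulin) summed to 29.5 FPKM watered and 59.0 on day 3 in total RNA, and to 43.2 and 126 in mRNA. The watered leaves thus carried the markers of their label at high levels, and on day 3 the same markers were low. In RNA from whole leaves, fewer cells of a type and less RNA per cell cannot be told apart.

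The make-up of the RNA pool was largely exchanged by day 3. The genes called higher held 7.18% of the summed FPKM of total RNA when watered and 54.9% on day 3, and in mRNA they held 8.36% and 56.8%. The genes called lower went the other way, from 47.0% to 6.51% in total RNA and from 53.8% to 6.57% in mRNA. These shares follow from the calls and are a description of their weight. The pool was also spread over more genes: in total RNA, 200 genes held 50% of the summed FPKM when watered and 641 did on day 3, and in mRNA the numbers were 530 and 691. The 10 most abundant genes held 24.3% on the watered side and 6.76% on day 3 in total RNA, against 11.8% and 6.85% in mRNA. Of the 100 most abundant genes of each library, 23 were shared between both sides in total RNA and 16 in mRNA.

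**Figure D2:**
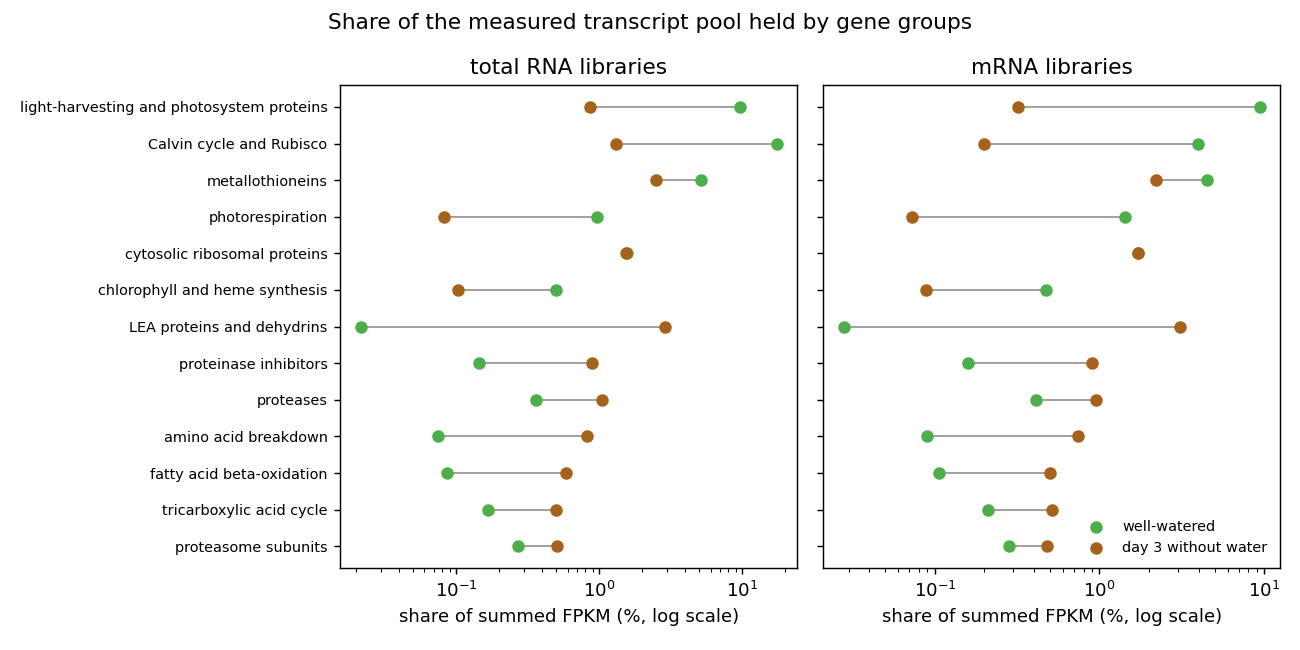
Share of the summed FPKM of a library (percent, log axis) held by 13 gene groups, total RNA on the left and mRNA on the right, with green points for well-watered leaves and brown points for day 3. LEA proteins and dehydrins moved from 0.0216% to 2.87% in total RNA, light-harvesting and photosystem proteins moved down, and cytosolic ribosomal proteins stayed at nearly one place.

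A large gap between the kinds lay in genes resembling the large subunit of Rubisco. In the watered total RNA library 5 such loci held 12.8% of the summed FPKM, and on day 3 they held 1.07%. In mRNA 4 of them held 0.00501% and 0.00177%. The plastid gene for this protein gives transcripts that are mostly without a poly(A) tail, and the tables list chromosomes 1 to 12 only, so the loci stand for sequences that resemble it. Os01g0791033, the most abundant of them, had 55881 FPKM watered against 4174 on day 3 in total RNA, against 9.35 and 6.44 in mRNA. The sources used here do not give how reads were shared among such near-identical loci, so the values of single loci are uncertain.

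On day 3 the top of the pool held protective proteins, metal-binding metallothioneins, a protease and a thioredoxin. In total RNA, Os01g0791033, named above, still ranked 7 and the photosystem II D1-like Os04g0473150 ranked 8. The D1-like gene had 4993 FPKM watered and 3597 on day 3 in total RNA, and 2.00 and 1.71 in mRNA. It was not called. RAB21, a dehydrin that protects proteins and membranes in drying cells, led both day 3 libraries (Os11g0454300, chromosome 11, 15342877 to 15343671, IRGSP-1.0). It stood at 1.5 FPKM watered against 6737 on day 3 in total RNA, and at 0.726 against 7279 in mRNA. The salt-induced lectin-like gene SalT, Os01g0348900 on chromosome 1, stood at 6.12 against 4223 FPKM in total RNA and at 3.95 against 6213 in mRNA. Both genes were at a few FPKM or less when watered and among the most abundant on day 3 in each kind. Other leading genes were abundant beforehand. Thioredoxin h, Os07g0186000, a cytosolic protein that reduces disulphides, had 755 FPKM watered and 4601 on day 3 in total RNA, and 853 and 5579 in mRNA. Oryzain alpha, Os04g0650000, a papain-type cysteine protease, had 691 and 4531 FPKM in total RNA and 642 and 4056 in mRNA. A glyceraldehyde-3-phosphate dehydrogenase, Os08g0126300, had 1034 and 2882 FPKM in total RNA and 1153 and 3731 in mRNA, with log2 ratios of 1.48 and 1.69.

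The genes with the largest ratios included enzymes and small proteins outside the dehydrins. Os01g0615100, a subtilisin and chymotrypsin inhibitor of the potato inhibitor I family (chromosome 1, 24392841 to 24393423), had 2.46 FPKM watered and 3326 on day 3 in total RNA, and 1.65 and 3341 in mRNA, which are log2 ratios of 9.91 and 10.30. Os06g0681200, a cupredoxin domain protein whose fold binds copper, had 0.761 and 1553 FPKM in total RNA and 0.292 and 1849.8 in mRNA. Os05g0247100, a class III chitinase, had 2.00 and 1824 FPKM in total RNA and 2.15 and 2561 in mRNA. All 3 were at a few FPKM or less when watered in both kinds. Os05g0468800, with a phosphatidylethanolamine-binding domain as in the flowering regulators of the FT family, had 1.65 and 967 FPKM in total RNA and 1.3 and 1020.0 in mRNA. Os04g0511200, a calcium-binding EF-hand protein named EFA27, had 3.96 and 1709 FPKM in total RNA and 2.90 and 1699 in mRNA. Os02g0783625, a lysine ketoglutarate reductase and saccharopine dehydrogenase that starts lysine breakdown, had 3.93 and 1597 FPKM in total RNA and 2.93 and 1351 in mRNA. It has a close neighbour with the same description, Os02g0783700, so how reads were split between them is uncertain.

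At the low end stood photosystem and glycine cleavage genes together with many genes of other kinds. Os07g0147500, similar to the photosystem II 10 kDa polypeptide (chromosome 7, 2454338 to 2455636), had 819 FPKM watered and 1.02 on day 3 in total RNA, and 785 and 0.802 in mRNA. Its neighbour Os07g0147550 has the same description and went the opposite way, with 1.29 and 32.6 FPKM in total RNA and 1.23 and 28.7 in mRNA, so the split of reads between these similar genes is uncertain. Os02g0704000, a carotenoid oxygenase, had 1056 and 3.27 FPKM in total RNA and 1323 and 2.65 in mRNA. Os05g0548900, similar to phosphoethanolamine methyltransferase, which methylates the precursor of phosphatidylcholine, had 312 and 0.851 FPKM in total RNA and 336 and 0.553 in mRNA. These genes were abundant when watered and at a few FPKM or less on day 3. The same held for a class 3 lipase, Os04g0657500, with 251 and 0.537 FPKM in total RNA and 273 and 0.406 in mRNA. Os07g0628700, similar to a receptor protein kinase, had 536 and 1.56 FPKM in total RNA and 377 and 0.863 in mRNA. Os04g0282400, similar to the flowering-promoting factor FPF1, had 451 and 0.753 FPKM in total RNA and 368 and 0.956 in mRNA. Os03g0843800, a methyl chloride transferase, had 188 FPKM in total RNA and 139 in mRNA when watered and was listed at 0 in both day 3 libraries.

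Among 73 groups of genes described by their medians, 10 had a median of at least 1 in both kinds and 9 a median of at most -1. Without the filter, 8 groups in all passed these limits. Counts of members called are to be read beside the 18.2% higher and 25.9% lower of all genes. The light-harvesting and photosystem proteins, which capture light and carry electrons in the thylakoid, had 41 of 46 measured members called lower and a median of -4.84 in total RNA and -4.85 in mRNA. Photorespiration, the salvage of the glycolate that Rubisco makes when it takes up oxygen, had 12 of 14 members lower, 0 higher and medians of -3.52 and -3.94. Its glycine cleavage subunits were among the lowest. The H protein Os10g0516100 had 318 FPKM watered and 0.669 on day 3 in total RNA, and 467 and 0.706 in mRNA. The P protein Os06g0611900 had 362 and 3.96 FPKM in total RNA and 1893 and 6.15 in mRNA. The T protein Os04g0623800 had 526 and 3.40 FPKM in total RNA and 538 and 3.24 in mRNA. Serine hydroxymethyltransferase, Os03g0738400, which takes up the carbon unit that cleavage releases, kept a larger remainder, with 1015 and 35.9 FPKM in total RNA and 1853 and 40.6 in mRNA.

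Chlorophyll and heme synthesis share their early steps and part where magnesium or iron is inserted, and 19 of 27 measured members were lower while 2 were higher. Protochlorophyllide reductase B, Os10g0496900, the light-driven step, had 208 FPKM watered and 3.17 on day 3 in total RNA, and 218 and 2.73 in mRNA. The magnesium-protoporphyrin methyltransferase Os06g0132400 had 39.7 and 0.344 FPKM in total RNA and 56.5 and 0.216 in mRNA. Geranylgeranyl reductase, Os02g0744900, which makes the phytol tail, had 578 and 21.1 FPKM in total RNA and 436 and 13.6 in mRNA. These members of the chlorophyll branch were all lower by more than 4 log2 units. The members called higher lie elsewhere in the pathway. Ferrochelatase, Os09g0297000, which inserts the iron of heme, had 20.8 and 56.5 FPKM in total RNA and 16 and 44.8 in mRNA. Aminolevulinic acid dehydratase, Os06g0704600, of the shared early steps, had 79.7 and 175 FPKM in total RNA and 68.8 and 171 in mRNA. Its log2 ratios of 1.12 and 1.3 came to 0.68 and 0.95 with the deposited quantile-normalized values and to 0.89 and 1.18 without the most abundant genes, which ends the call.

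Carotenoid synthesis supplies light-protecting pigments and the precursor of abscisic acid. It had 6 of 14 members lower (42.9%) and 2 higher (14.3%), beside 25.9% and 18.2% of all genes. The beta-carotene hydroxylase Os03g0125100 had 4.10 FPKM watered and 81.6 on day 3 in total RNA, and 5.85 and 109 in mRNA. Phytoene synthase 3, Os09g0555500, at the entry of the pathway, had 15.4 and 57.7 FPKM in total RNA and 13.7 and 52.5 in mRNA. On the other side, violaxanthin de-epoxidase, Os04g0379700, which makes zeaxanthin in strong light, had 32.1 and 0.855 FPKM in total RNA and 40.8 and 1.10 in mRNA. Lycopene epsilon-cyclase, Os01g0581300, which leads to lutein, had 39.7 and 3.12 FPKM in total RNA and 38.1 and 2.47 in mRNA. Members on both sides of zero were thus found in this pathway, unlike in photorespiration.

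Genes of RNA processing and protein synthesis differed by group. Pentatricopeptide repeat proteins, which bind and process organelle RNA, had 80 of 183 measured members lower (43.7%) and 4 higher, with medians of -0.94 and -1.29. With a pseudocount of 5 the count was 29 of 183, beside 2450 of all 18113 genes, which are similar shares. In the mRNA pair alone it was 122, beside 6005 of all genes. If genes had to average 5 FPKM, 2918 of all 12221 genes were lower. There 41 members were measured and 24 of these were lower, with medians of -1.22 and -1.88. Os02g0170000, the lowest of them, had 24.9 FPKM watered and 0.718 on day 3 in total RNA, and 82.2 and 1.6 in mRNA. Aminoacyl-tRNA synthetases, which load amino acids on tRNA, were not split by compartment. They had 25 of 52 members lower (48.1%, beside 25.9% of all genes) and 1 higher. After median-ratio scaling 13 were lower, beside 3488 of all 18113 genes. An alanyl-tRNA synthetase, Os06g0245800, had 81.4 and 5.99 FPKM in total RNA and 107 and 5.11 in mRNA. Cytosolic ribosomal proteins gave another picture, with 157 of 168 not called and medians of -0.27 and -0.20, close to those of all genes.

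The FtsH, Deg and Clp group, which clears damaged proteins in organelles, was mixed, with 14 of 35 members lower and 5 higher. Its summed level was higher on day 3, at 3952 FPKM watered and 7565 on day 3 in total RNA, with 4187 and 6222 in mRNA. Most of that gain was Os02g0526400, similar to the ATP-binding subunit of Clp protease, with 22 and 2699 FPKM in total RNA and 15.3 and 1634 in mRNA. An FtsH 9-like metalloprotease, Os01g0618800, was on the other side, with 119.6 and 17.7 FPKM in total RNA and 145 and 19.3 in mRNA. A ClpP proteolytic subunit, Os05g0592100, also was, with 255 and 46.9 FPKM in total RNA and 211 and 38.4 in mRNA.

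Carbon metabolism differed by enzyme copy. Starch synthesis had 9 of 17 members lower (52.9%) and 3 higher (17.6%, near the 18.2% of all genes). Granule-bound starch synthase Ib, Os07g0412100, which makes amylose in leaves, had 362 FPKM watered and 14.0 on day 3 in total RNA, and 319 and 10.5 in mRNA. A subunit of ADP-glucose pyrophosphorylase, Os05g0580000, which makes the building block of starch, had 3.31 and 185 FPKM in total RNA and 4.23 and 214 in mRNA, and branching enzyme 3, Os02g0528200, had 1.68 and 25.5 in total RNA, with 2.55 and 41.3 in mRNA. Starch breakdown had 3 of 16 members higher (18.8%, near the 18.2% of all genes), 2 lower and 11 not called. The group had 6 higher after median-ratio scaling, beside 4408 of all 18113 genes, and 7 in the total RNA pair alone, beside 3776. Its beta-amylases, which release maltose, were split: Os03g0351300 had 7.50 and 231 FPKM in total RNA and 5.05 and 140.3 in mRNA. Os03g0141200 had 40.2 and 692 FPKM in total RNA and 43.9 and 601 in mRNA. Os07g0543100 was lower, with 14.6 and 1.81 FPKM in total RNA and 13.3 and 1.27 in mRNA.

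Sucrose enzymes had 6 of 21 members higher and 1 lower. Sucrose synthase Os03g0340500, which cleaves sucrose with UDP, had 12.1 FPKM watered and 300.3 on day 3 in total RNA, and 23.5 and 426 in mRNA. A neutral invertase, Os03g0314800, which splits sucrose with water, had 20.1 and 277 FPKM in total RNA and 15.5 and 189.8 in mRNA. Sugar transporters were divided, with 11 of 32 higher (34.4%) and 13 lower (40.6%), beside 18.2% and 25.9% of all genes. The MtN3 (SWEET type) sugar exporter Os02g0513100 had 0.473 and 163 FPKM in total RNA and 0.236 and 197 in mRNA. SWEET3a, Os05g0214300, had 40 FPKM in each watered library and was listed at 0 in each day 3 library. A hexose transporter, Os03g0218400, was already present, with 52.9 and 918 FPKM in total RNA and 70.5 and 1162 in mRNA.

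Beta-oxidation, the peroxisomal breakdown of fatty acids, had 12 of 17 members higher and 2 lower, with medians of 1.75 and 1.80. The multifunctional protein Os02g0274100, which carries its middle steps, had 51.5 FPKM watered and 1135 on day 3 in total RNA, and 70.5 and 1183 in mRNA. An acyl-CoA oxidase 4, Os05g0163700, of the opening step, had 10.6 and 210.2 FPKM in total RNA and 17.0 and 266 in mRNA. Another gene of that description, Os06g0347100, was lower, with 28.2 and 13.3 FPKM in total RNA and 159 and 33.6 in mRNA, and its log2 ratio in total RNA was -1.02, against -0.68 after median-ratio scaling and -0.85 with a pseudocount of 5, which ends the call. The glyoxylate cycle, which turns acetyl units from fatty acids into sugar precursors, showed isocitrate lyase Os07g0529000 at 3.58 and 1713 FPKM in total RNA, and in mRNA at 1.64 and 838. The malate synthase-like gene Os01g0798500 was lower, with 19.3 and 0.989 FPKM in total RNA and 42.5 and 1.14 in mRNA, while the malate synthase Os04g0486950 was higher, with 1.84 and 472 FPKM in total RNA and 1.72 and 359 in mRNA. Of 3 PEP carboxykinases, which lead on from this cycle to sugar, 2 were lower. The third, Os03g0255500, was not called, with 64.8 and 65.2 FPKM in total RNA and 77.9 and 70.9 in mRNA.

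The tricarboxylic acid cycle, the mitochondrial oxidation of acetyl units, had 12 of 26 members higher and 2 lower, with medians of 1.00 and 1.01. An NAD-dependent isocitrate dehydrogenase, Os04g0479200, had 9.58 FPKM watered and 209 on day 3 in total RNA, and 10.9 and 232 in mRNA. Aconitase, Os03g0136900, had 26.6 and 347 FPKM in total RNA and 34.6 and 423 in mRNA. Both lower members were malate dehydrogenases: the nodule-enhanced type Os07g0630800 had 78.8 and 3.69 FPKM in total RNA and 54.9 and 1.71 in mRNA, and Os05g0574400 had 113 and 21.8 in total RNA, with 241 and 39.9 in mRNA. Whether these enzymes act in the mitochondrion was not checked. The respiratory chain, which passes electrons on to oxygen, had 7 of 49 members higher, 2 lower and 40 not called, with medians of 0.48 and 0.56. These medians lay above the -0.24 and -0.39 of all genes. After median-ratio scaling 20 of the 49 were higher, beside 4408 of all 18113 genes, and in the mRNA pair alone 13, beside 3505. On the deposited scale, 70.6% of the beta-oxidation members, 46.2% of the acid cycle members and 14.3% of the chain members were called higher, beside 18.2% of all genes. Whether the chain lay below or above all genes in this share depended on the scaling.

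**Figure D3:**
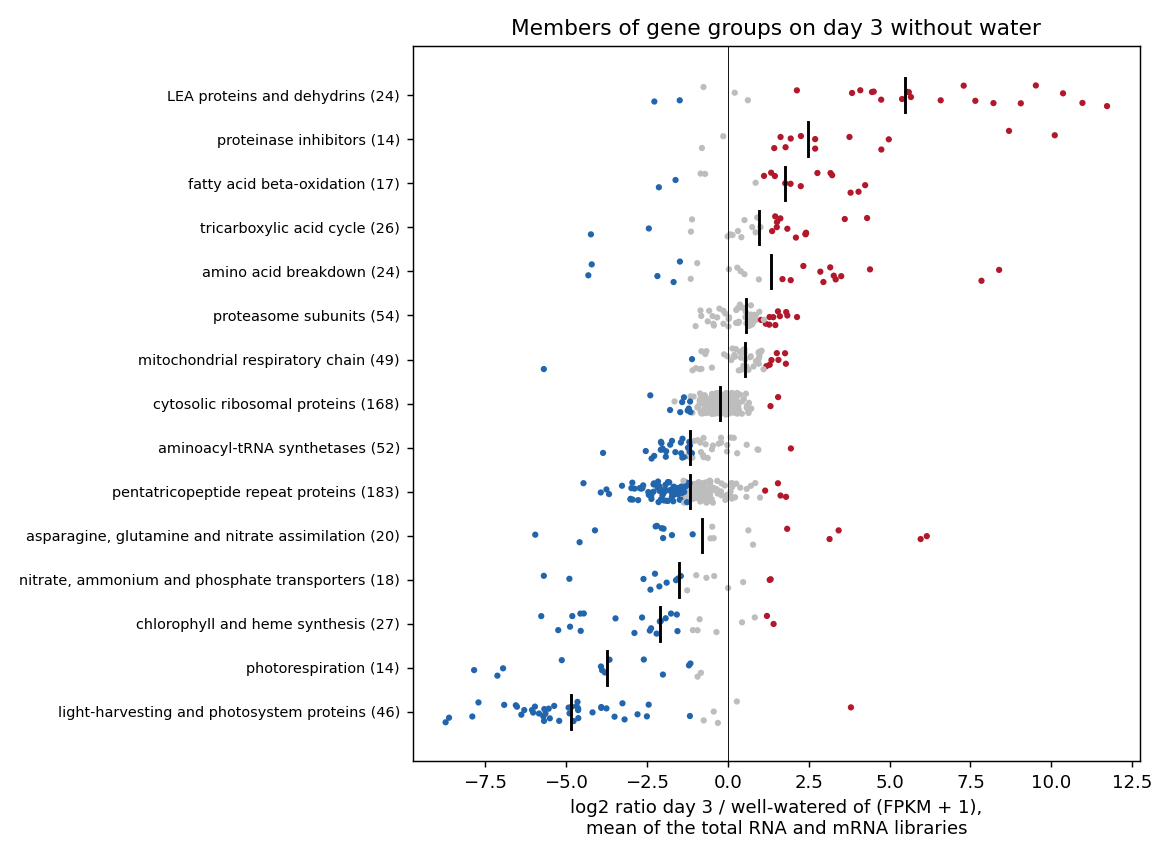
Log2 ratio of day 3 to well-watered leaves (FPKM + 1, mean of both library kinds) for the members of 15 gene groups, 1 point per gene, with red for called higher, blue for called lower, grey for not called and a black bar at the median. Groups of fatty acid and amino acid breakdown lie to the right, those of photosynthesis and photorespiration to the left, and several groups have members on both sides.

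Nitrogen genes were described in groups of breakdown, assimilation and transport, and each group held genes called in both directions. Amino acid breakdown had 12 of 24 members higher and 5 lower, with medians of 1.43 and 1.21. Without the filter the medians were 0.78 and 0.69. Fumarylacetoacetase, Os02g0196800, which ends tyrosine breakdown, had 75.7 FPKM watered and 1506 on day 3 in total RNA, and 54.6 and 1252 in mRNA. 4-hydroxyphenylpyruvate dioxygenase, Os02g0168100, of the same route and of vitamin E synthesis, had 48.8 and 548 FPKM in total RNA and 71.3 and 844 in mRNA. Among the lower members were a pair described as saccharopine dehydrogenase family proteins. Os12g0137200 had 41.1 and 1.07 FPKM in total RNA and 42.9 and 1.28 in mRNA, and Os11g0140700 had 23.4 and 0.200 in total RNA, with 24.5 and 0.523 in mRNA. Genes that share the name saccharopine dehydrogenase thus stood at both ends of the range.

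Assimilation of ammonium and nitrate had 10 of 20 members lower and 5 higher. Glutamine synthetase, which binds ammonium to glutamate, differed by copy. The chloroplast form Os04g0659100 had 618 FPKM watered and 12.7 on day 3 in total RNA, and 973 and 10.5 in mRNA. The root isozyme Os03g0223400 had 16.1 and 156 FPKM in total RNA and 24.5 and 217 in mRNA. The root isozyme 2, Os03g0712800, was listed at 0 in both watered libraries and had 69.6 and 70.5 FPKM on day 3. A further shoot form, Os02g0735200, was not called, with 299.6 and 189 FPKM in total RNA and 349 and 283 in mRNA. Asparagine synthetase, Os03g0291500, which makes a nitrogen-rich amino acid used for transport, was listed at 0 in total RNA and had 0.107 FPKM in mRNA when watered, and 61.0 and 68.3 on day 3. Nitrite reductase, Os01g0357100, had 109 and 3.12 FPKM in total RNA and 170.4 and 7.01 in mRNA. Ferredoxin-dependent glutamate synthase, Os07g0658400, had 1145 and 75.8 FPKM in total RNA and 1288 and 64.1 in mRNA, while an NADH-dependent one, Os01g0682001, was higher, with 10.6 and 156 in total RNA, with 5.51 and 54.6 in mRNA. Chloroplast and ferredoxin-linked forms were the lower ones among these named genes.

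Transporters of nitrate, ammonium and phosphate had 10 of 18 members lower and 2 higher. A phosphate transporter, Os02g0593500, had 78.4 FPKM watered and 0.750 on day 3 in total RNA, and 81.7 and 0.419 in mRNA. The nitrate transporter Os01g0547600, similar to NRT2.7, had 29.9 in each watered library and 0.0326 and 0.0449 FPKM on day 3. Amino acid and peptide transporters had 18 of 58 higher (31.0%, beside 18.2% of all genes) and 16 lower (27.6%, near the 25.9% of all genes). Os04g0460300 had 0.580 and 373 FPKM in total RNA and 0.453 and 370.5 in mRNA. Os01g0945300 was on the other side, with 76.7 and 1.33 FPKM in total RNA and 100.4 and 1.55 in mRNA.

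Proteases and their inhibitors were both among the genes with large ratios. Of 96 measured proteases, 26 were higher (27.1%, beside 18.2% of all genes) and 25 lower (26%, beside 25.9%). Their summed level was 2709.8 FPKM watered and 7107 on day 3 in total RNA, and 2962 and 6684 in mRNA. The serine carboxypeptidase-type gene Os05g0582500 had 0.572 and 176 FPKM in total RNA and 0.156 and 181 in mRNA. A cysteine proteinase, Os08g0556900, had 11.0 and 882 FPKM in total RNA and 8.25 and 518 in mRNA. A carboxypeptidase similar to SCPL33, Os01g0332800, was lower, with 91.4 and 0.359 FPKM in total RNA and 113 and 0.0882 in mRNA. Of 14 proteinase inhibitors 12 were higher and 0 lower, with medians of 2.21 and 2.59. Without the filter, 12 of 21 were higher and the medians were 1.62 and 1.52. The second inhibitor of the potato I family, Os01g0615050, lies beside the one named above and had 0.524 and 663 FPKM in total RNA and 0.600 and 626 in mRNA.

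The proteasome, which degrades ubiquitin-tagged proteins in cytosol and nucleus, had 11 of 54 subunits higher (20.4%, near the 18.2% of all genes) and 0 lower, with medians of 0.56 and 0.53. It had 23 higher after median-ratio scaling, beside 4408 of all 18113 genes. Its beta 2 subunit, Os03g0695600, had 13.1 FPKM watered and 91.1 on day 3 in total RNA, and 24.3 and 74.8 in mRNA. Autophagy genes, which package cell parts for breakdown in the vacuole, had 3 of 18 higher (16.7%, near the 18.2% of all genes) and 1 lower. After median-ratio scaling 7 were higher, beside the same 4408 of all genes. Autophagy protein 9, Os03g0248000, had 9.66 and 57.5 FPKM in total RNA and 14.9 and 53.8 in mRNA. Most members of both groups were not called.

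Redox and metal-binding proteins differed by copy and compartment. All 10 measured metallothioneins, small cysteine-rich proteins that bind metals, were called, 6 higher and 4 lower. The type 3 gene Os01g0200700 was the second most abundant gene of the watered total RNA library, with 31845 FPKM watered and 6279.9 on day 3, and it had 25265 and 4835 in mRNA. Its log2 ratios were -2.34 and -2.39. The deposited quantile-normalized values give equal ranks of a kind equal values. This gene had rank 2 in both total RNA libraries, and its total RNA ratio on that scale was 0.00. The type 2 gene Os01g0149800 had 1200.0 and 5024 FPKM in total RNA and 1266 and 5556 in mRNA. Os05g0202800, of type 3B, had 2977 and 87.5 FPKM in total RNA and 2716 and 80.7 in mRNA. Os11g0704500, of type 1, had 495 and 3356 in total RNA, with 320.1 and 2231 in mRNA, and Os03g0288000 had 23.7 and 803 in total RNA, with 34.7 and 1093 in mRNA. The summed level of the family was 39074 FPKM watered and 16955 on day 3 in total RNA, and 32275 and 15554 in mRNA.

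**Figure D4:**
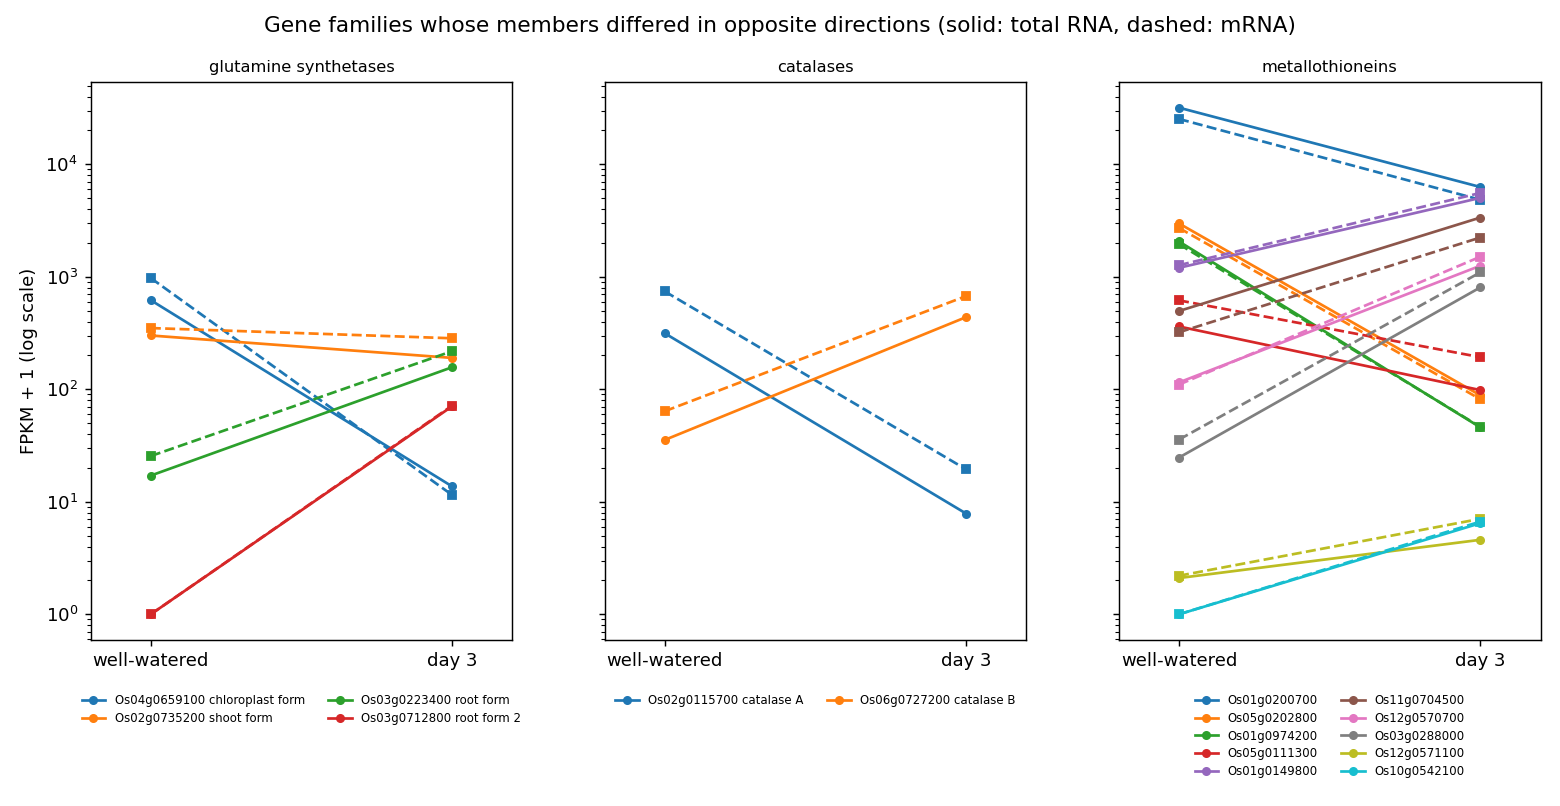
FPKM + 1 on a log axis when watered and on day 3, total RNA with solid and mRNA with dashed lines, for glutamine synthetases, catalases A and B and metallothioneins, 1 colour per gene. Each panel holds genes that were lower on day 3 and genes that were higher, and the lines of some of them cross.

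Catalase, which breaks down hydrogen peroxide, differed by form, with A lower and B higher. Catalase A, Os02g0115700, had 313 FPKM watered and 6.85 on day 3 in total RNA, and 739 and 18.4 in mRNA. Catalase B, Os06g0727200, had 34.5 and 437 FPKM in total RNA and 62.9 and 673 in mRNA. Thioredoxins, glutaredoxins and peroxiredoxins had 12 of 59 members higher (20.3%) and 17 lower (28.8%), shares near the 18.2% and 25.9% of all genes. The chloroplast thioredoxin F-type Os01g0913000, which switches photosynthetic enzymes on in light, had 898 and 20.4 FPKM in total RNA and 765 and 16.6 in mRNA. A 1-Cys peroxiredoxin, Os07g0638300, a type known from seeds, was listed at 0 in both watered libraries and had 9.72 and 16.3 FPKM on day 3. Glutathione S-transferases, which attach glutathione to toxic compounds, had 10 of 33 higher (30.3%) and 12 lower (36.4%). GSTU6, Os01g0692000, had 0.466 and 76.3 FPKM in total RNA and 0.786 and 84.5 in mRNA. Os10g0530500 had 187 and 0.423 in total RNA, and 159 and a listing at 0 in mRNA.

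Heat shock factors, the transcription factors of protein-damaging stress, had 10 of 19 members higher and 2 lower, with medians of 1.75 and 1.22. Without the filter, 10 of 22 were higher and the medians were 0.69 and 0.59. Factor C-2b, Os06g0553100, had 0.0748 FPKM watered and 37.8 on day 3 in total RNA, and was listed at 0 against 80.8 in mRNA. In the chaperone group of Hsp70, Hsp90, Hsp100 and DnaJ, 73 of 106 were not called, beside 10124 of all 18113 genes. There 15 were higher (14.2%, beside 18.2% of all genes) and 18 lower (17.0%, beside 25.9%). After median-ratio scaling, which called 4408 of all 18113 genes higher, 28 of these 106 were higher. Their summed level was 4511 FPKM watered and 7468 on day 3 in total RNA, and 4817 and 6823 in mRNA. An Hsp70, Os03g0277300, had 0.606 and 110.1 FPKM in total RNA and 0.676 and 129 in mRNA. A DnaJ protein, Os12g0498500, was lower, with 73.7 and 0.203 FPKM in total RNA and 89.1 against a listing at 0 in mRNA. Small heat shock proteins had 5 of 15 higher and 3 lower, with medians of 0.00 and 0.02.

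Chitinases, glucanases and thaumatin-like proteins, which act on cell walls of fungi and plants, had 26 of 51 members higher and 7 lower. Their medians were 1.02 and 1.67, and 0.56 and 0.36 without the filter. The thaumatin-like Os03g0663400 had 1.71 FPKM watered and 264 on day 3 in total RNA, and 2.36 and 397 in mRNA. Lipid transfer proteins, small secreted lipid carriers, had 14 of 22 higher and 1 lower, with medians of 1.24 and 1.25. Without the filter these medians were 0.39 and 0.35. The nsLTP2-type Os05g0550600 was listed at 0 against 153 FPKM in total RNA and had 0.106 and 189.9 in mRNA. Lipases and phospholipases had 16 of 45 higher and 7 lower. The class 3 lipase Os01g0253900, similar to a triacylglycerol lipase, had 13 and 417 FPKM in total RNA and 9.36 and 287 in mRNA. A phospholipase D, Os06g0604300, had 11.9 and 11.7 FPKM in the watered libraries and was listed at 0 in both day 3 libraries. A 3-ketoacyl-CoA synthase, Os05g0574600, of the chain lengthening that feeds wax, had 0.949 and 121 FPKM in total RNA and 2.38 and 154 in mRNA, in a group of 11 with 3 higher and 2 lower.

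Terpene synthases, cytochromes P450 and flavonoid synthesis had more members called lower than higher. Terpene synthases had 8 of 14 members lower and 3 higher. Without the filter, 8 of 23 were lower and the medians were -0.41 and -0.53. Os08g0139700, similar to terpene synthase 6, had 474 FPKM watered and 2.51 on day 3 in total RNA, and 432 and 0.318 in mRNA. Cytochromes P450, oxidising enzymes of many pathways, had 54 of 126 lower (42.9%) and 28 higher (22.2%, beside 18.2% of all genes). Os08g0508000 had 0.615 and 385 FPKM in total RNA and 0.546 and 275 in mRNA, and Os09g0528700, similar to CYP78A9, had 83.8 and 62.2 in the watered libraries and was listed at 0 in both day 3 libraries. Flavonoid synthesis had 8 of 18 lower and 5 higher. Laccase 25, Os12g0257600, of a family that joins lignin units, had 1.00 and 156 FPKM in total RNA and 1.01 and 148 in mRNA, and lignin and phenylpropanoid genes as a group had 9 of 34 higher (26.5%) and 8 lower (23.5%, near the 25.9% of all genes). Polygalacturonase PG2, Os05g0578600, which cuts pectin, had 0.133 and 35.9 FPKM in total RNA and was listed at 0 against 45.6 in mRNA.

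Hormone and light signalling showed contrasts within pathways. Cytokinin genes had 12 of 25 members lower and 5 higher. The A-type response regulator Os02g0557800, of a class that damps the cytokinin signal, was lower, with 50.2 FPKM watered and 0.245 on day 3 in total RNA, with 58.1 and 0.306 in mRNA. The B-type regulator Os03g0224200, which activates cytokinin genes, was higher, with log2 ratios of 2.31 and 2.18. Auxin genes had 17 of 54 lower (31.5%) and 10 higher (18.5%), the latter near the 18.2% of all genes. Os05g0230700, similar to the auxin repressor IAA17, had 110.1 and 5.13 FPKM in total RNA and 218 and 8.76 in mRNA, and auxin response factor 1, Os06g0196700, had 1.93 and 71.2 in total RNA, with 2.14 and 79.9 in mRNA. Ethylene genes had 6 of 17 higher and 2 lower, with an ACC synthase, Os04g0578000, of the rate-setting step, at 0.328 and 22 FPKM in total RNA, and in mRNA at 0.584 and 33.7. Gibberellin 20-oxidases, which act in gibberellin synthesis, stood on both sides: Os08g0560000 had 3.00 and 28.3 FPKM in total RNA and 1.52 and 16.4 in mRNA, and Os08g0249900 had 19.1 and 0.161 in total RNA, with 27.4 and 0.121 in mRNA.

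Of 9 photoreceptors 3 were lower (33.3%, beside 25.9% of all genes) and 1 higher. Cryptochrome 1, Os02g0573200, had 53.0 and 16.3 FPKM in total RNA and 57.1 and 10.1 in mRNA, and the phototropin-like Os04g0304200 had 108 and 32.6 in total RNA, with 198 and 39.5 in mRNA. Phytochrome A, Os03g0719800, had 33.0 and 13.1 FPKM in total RNA and 19.0 and 6.40 in mRNA. A DASH cryptochrome, Os06g0661800, was higher, with 7.88 FPKM watered and 30.8 on day 3 in total RNA, with 10 and 26.7 in mRNA. Phytochrome A lost its call after median-ratio scaling, with log2 ratios of -0.92 and -0.93. Of 9 clock genes 5 were not called, among them GIGANTEA, Os01g0182600, with 194 and 515 FPKM in total RNA and 529 and 705 in mRNA. The ELF3-like Os06g0142600 was lower, with 51.9 and 22.7 FPKM in total RNA and 47.9 and 21.1 in mRNA, but after median-ratio scaling its log2 ratios were -0.80 and -0.60 and the call was lost. Time of day was not given, so a different sampling hour cannot be told apart from the treatment for these genes.

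Among kinases and resistance proteins, lower calls outnumbered higher ones in the receptor families. NBS-LRR proteins, intracellular receptors of pathogens, had 69 of 147 members lower (46.9%) and 9 higher, with medians of -0.92 and -1.24. With a pseudocount of 5 there were 18 of 147 lower, beside 2450 of all 18113 genes, so the larger share of lower members was not kept. If genes had to average 5 FPKM there were 21 of 49, beside 2918 of all 12221 genes then tested. Os11g0213800 was an exception, with 1.56 FPKM watered and 116 on day 3 in total RNA, with 2.76 and 77.5 in mRNA. Receptor-like kinases had 31 of 87 lower and 14 higher, and under those same settings 19 of 87 and 15 of 48 were lower. MAP kinase cascade genes had 7 of 33 higher (21.2%, near the 18.2% of all genes) and 3 lower (9.09%), with the MAP kinase Os03g0285800 at 8.58 and 118 FPKM in total RNA, and in mRNA at 6.10 and 143. Ion channels and carriers had 20 of 56 higher and 10 lower. A vacuolar sodium/proton exchanger, Os07g0666900, which loads sodium into the vacuole, had 6.93 and 127 FPKM in total RNA and 6.04 and 130.4 in mRNA. Os01g0385400, a malate transporter-like protein of the family that holds guard cell anion channels, had 0.343 and 40.4 FPKM in total RNA and 0.275 and 60.1 in mRNA.

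**Figure D5:**
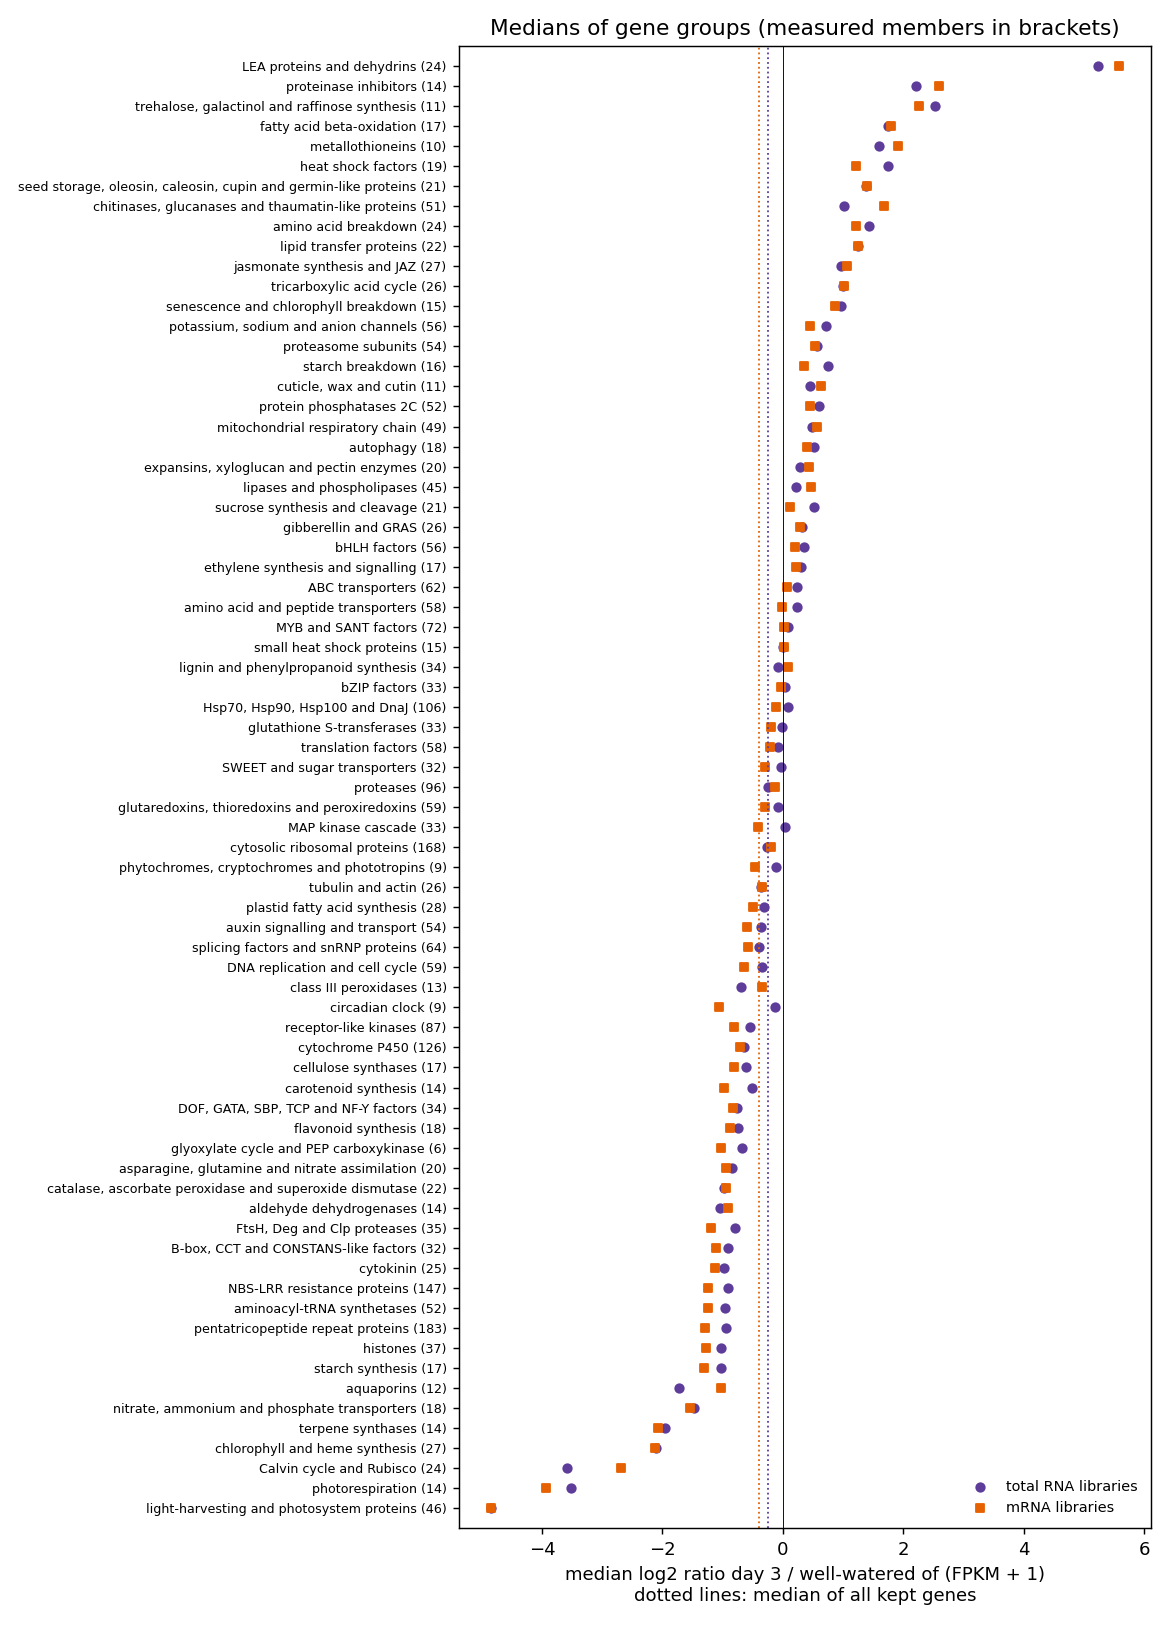
Median log2 ratio of day 3 to well-watered leaves (FPKM + 1) for each of the 73 gene groups, with circles for total RNA and squares for mRNA and the number of measured members in brackets; dotted lines mark the medians of all genes kept, -0.24 and -0.39. LEA proteins stand highest at 5.23 and 5.58 and light-harvesting and photosystem proteins lowest at -4.84 and -4.85.

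Some large differences lay side by side on a chromosome. There were 13 runs of at least 4 neighbouring kept genes that were all at least 4-fold different in the same direction in both kinds. The longest, with 6 genes on chromosome 3 from 27736390 to 27792047, held 4 genes similar to oxalate oxidase (germin), which makes hydrogen peroxide in the cell wall. Os03g0694000 among them had 14.9 FPKM watered and 1232 on day 3 in total RNA, and 16.4 and 1559.8 in mRNA, and Os03g0693900 had 5.88 and 547 in total RNA, with 6.45 and 730.4 in mRNA. A run of 5 on chromosome 1, from 28921498 to 28957013, held 4 serine/threonine kinase genes, such as Os01g0699400 with 0.463 and 128 FPKM in total RNA and 0.327 and 108 in mRNA. A run of 4 on chromosome 1, from 1345118 to 1366432, held 3 genes described as Bowman-Birk inhibitors, with Os01g0124200 at 10.5 and 298 FPKM in total RNA, and in mRNA at 7.57 and 323. On the lower side a run of 5 on chromosome 12, from 9179690 to 9291494, held genes similar to glutathione synthase and to isoflavone reductase, such as Os12g0263600 with 184 and 16.9 FPKM in total RNA and 134 and 13.4 in mRNA. Chromosome 11, from 2500437 to 2521841, held a chloroplast signal recognition particle gene, Os11g0153700, with 79.5 and 7.86 FPKM in total RNA and 89.9 and 5.87 in mRNA. Neighbours in such runs are often copies of each other, so reads may have been shared among them.

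Not every gene behaved alike in both kinds. Os07g0418600, a hypothetical protein, was higher in both, but with 0.106 FPKM watered and 25.7 on day 3 in total RNA, with 0.272 and 554 in mRNA. Os03g0146100, a tonoplast aquaporin that lets water through the vacuolar membrane, had 112 and 21.9 FPKM in total RNA but 193 and 147 in mRNA, and was not called. Os03g0171600, a kelch domain protein, had 6.46 and 189.7 FPKM in total RNA and 44.6 and 187 in mRNA, so the kinds differed in the watered leaves and met on day 3. Genes found in 1 table only added little: 13 in total RNA and 7 in mRNA averaged 1 FPKM or more. Among the latter were the LEA-18 genes Os09g0482550 and Os09g0482300, listed at 0 when watered and at 5.08 and 4.33 FPKM on day 3. Just inside the limit stood Os09g0490200, an EIN3-like ethylene factor, with log2 ratios of 1.0006 and 1.01, and just outside it Os03g0792500, a POZ domain protein, with 1.18 and 0.9987.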

How the data were processed

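Leaf RNA was sequenced after stranded total RNA and stranded mRNA library preparation, per the labels' protocols. Per the submitters' processing notes, FastQC 0.10.0, Trimmomatic 0.32, HISAT2 2.0.5, Bowtie2 2.2.6 and StringTie 1.3.3b were used with the IRGSP-1.0 genome, with no role or order given. For each library kind the authors deposited a table of FPKM per transcript form, beside quantile-normalized log2 values. FPKM was summed per gene, 1 was added, and the log2 ratio of day 3 to well-watered was taken within each table. Kept were genes listed for both kinds that averaged 1 FPKM or more over the 4 libraries of each table. The read depth is unknown, because FPKM steps did not give whole reads, and the precision cannot be given. The calculation was checked on simulated data with few changed genes, median-ratio scaling and no pseudocount. That check does not cover the deposited scale used here or a large shift of the RNA pool. Python 3.11.15, pandas 2.3.3, numpy 2.4.6 and matplotlib 3.10.9 were used. Alternatives were other pseudocounts, filters and scalings and each kind alone.

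Members and lists were chosen with earlier results of these data known. Lists were built from words in the deposited descriptions or from gene IDs. The naming rules took the 15 most extreme on each side, the first 2 called per side of each list, every member of lists of up to 12, the 10 most abundant per library, genes whose kinds differed most, runs of neighbours and genes at the limits. Not all genes that these rules took are printed. Other genes named here, such as further members of a list, were chosen after their values were seen.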

Additional observations from a re-analysis of the deposited data

Results flagged for a closer look

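The library kinds passed the size limit in opposite directions for 4 genes, and these differences were not tested. Os05g0495300 had 40 FPKM watered and 237 on day 3 in total RNA but 27.2 and 5.26 in mRNA, with log2 ratios of 2.54 and -2.17. Os07g0173700, described as a ribosomal protein of the small subunit, was listed at 0 when watered and had 5.62 FPKM on day 3 in total RNA. In mRNA it had 5.60 FPKM when watered and was listed at 0 on day 3, so the log2 ratios were 2.73 and -2.72. Os07g0581400 had 2.18 and 0.0221 FPKM in total RNA and 0.0127 and 4.23 in mRNA, with log2 ratios of -1.64 and 2.37. Os12g0283900, described as a DnaJ protein, had 7.78 and 21.0 FPKM in total RNA and 6.6 and 2.40 in mRNA, with log2 ratios of 1.32 and -1.16.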

How the results depend on the processing

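No paired analysis was possible because each side has 1 library of each kind and no test was made. Of 18113 genes, 4699 were called lower, and this count was 2450 with a pseudocount of 5 and, if genes had to average 5 FPKM, 2918 of the 12221 then tested. The share of higher genes among those called passed to the other side of an even split with a pseudocount of 5, at 50.6%, and after median-ratio scaling, at 55.8%, and it was 47.9% with quantile-normalized values and 35.6% without the most abundant genes. Median-ratio scaling kept all 3290 higher calls and 3488 of the lower ones. The number of gene groups with both medians past 1 or -1 was 19, and it was 10 with a pseudocount of 5, 8 without a filter and 29 in the mRNA pair alone. Without a filter the aquaporin median was 0.03 in total RNA, a change of sign, and -0.10 in mRNA, and the metallothionein gene Os01g0200700 lost its call with quantile-normalized values, at 0.00 in total RNA and -1.90 in mRNA. For that gene the 0.00 follows from its equal rank in both total RNA libraries. The causes of the other changes were not tested. Of 402 genes taken by the naming rules, printed or not, 33 lost their call with a pseudocount of 5 and 14 after median-ratio scaling. With quantile-normalized values 10 did besides Os01g0200700, and 5 did without the most abundant genes. With 1 library per side, the spread between plants is unknown.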

Other observations

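For some genes the leading transcript form was another one on day 3. These shares are estimates deposited by the authors, and the genes were chosen after their values were seen. Of 2597 genes with several forms, at least 5 FPKM on both sides and the same leading form in both watered libraries, 12 (0.462%) had a leading form that held at least 70% when watered and at most 30% on day 3 in both kinds. For Rubisco activase, Os11g0707000, which frees Rubisco of bound sugars, that form held 97.5% watered and 9.53% on day 3 in total RNA, and 99.3% and 5.73% in mRNA. For an ACC oxidase, Os02g0771600, the last enzyme of ethylene synthesis, it held 98.3% and 0.251% in total RNA, with 97.9% and 0.215% in mRNA, while the gene as a whole was higher, with 28.0 and 128 FPKM in total RNA and 28.3 and 95.7 in mRNA. A NAM-domain transcription factor gene, Os08g0535800, was not called as a whole, with 243 and 149.7 FPKM in total RNA and 206 and 136 in mRNA. Its leading watered form held 97.0% and 5.82% in total RNA, with 96.6% and 3.92% in mRNA.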
